A study of Mus musculus with 32 samples.

Results

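The comparison sets 5 whole brains, taken 21 days after implantation of BAL17 cells, against 6 arrays of the cultured BAL17 line. These are 11 of the 32 arrays of the study, chosen by their sample titles. BAL17 is a line of malignant B cells from BALB/c mice. The study implanted it, or its derivative BAL17VII, into the brains of wild-type BALB/c mice to model lymphoma that arises in the central nervous system. Each implanted mouse received 500000 cells. The other groups used here are 5 BAL17 brains at day 28, 5 BAL17VII brains at day 21, 6 arrays of cultured BAL17VII, and 5 brains of mice injected with PBS and taken at day 28. No PBS brain of day 21 was analysed here. The labels do not say whether the culture arrays came from separate cultures, so p-values measure only the spread between these arrays. The labels also give frozen tissue sections as the extracted material for every array, cultured lines included, so how the cultured cells were prepared is not settled. Sample descriptions number the culture arrays and the brain arrays in different series, so array run and group cannot be told apart. Of the BAL17VII brains, brain 1 had lymphoma genes at PBS levels. Some results that rest on that group are given with and without it, and the others include it.

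A mature B cell recognises antigen through its receptor, whose signal passes through the CD79 chains and adaptor proteins, and presents peptides to T cells on MHC class II molecules. The invariant chain Cd74 guides those molecules to the peptide-loading compartment, and the transactivator Ciita turns their genes on. Interferons raise antigen presentation genes, chemokines and antiviral genes in many cell types. A lymphoma growing in brain is measured here together with the tissue around it. In such bulk RNA, fewer cells of a type and less RNA per cell cannot be told apart.

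Brain genes were set aside by level. The median over all named probe sets of their means in PBS brains was 6.73 on the log2 scale, and 10142 of 19938 genes had a PBS mean below it. These are called low-brain genes below. Just inside that limit lay Mir677 and Gm13629 (both with a PBS mean of 6.725), and just outside lay Slc35f4 and Mgat4c (6.726). A gene was called higher or lower where limma gave an adjusted p under 0.05 and a difference of at least 1 log2. All differences are log2 intensity in day 21 brains minus cultured BAL17, ± limma's standard error. Neuronal genes, which define the tissue, had list means of 10.18 to 10.38 log2 intensity in the day 21 brains, 6.0 to 6.25 in culture and 10.61 to 10.74 in PBS brains (18 genes). The B lineage list (19 genes) had means of 6.94 to 7.32 in the day 21 brains, 8.31 to 8.42 in culture and 5.91 to 6.10 in PBS brains. Both sets of markers therefore match the labels of tissue and line.

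Of the low-brain genes, 115 were called higher in the day 21 brains (1.13%) and 749 were called lower (7.39%). Over all 19938 genes the shares were 10.7% higher and 7.99% lower. The shares of low-brain genes are the background for the gene list counts below. Of the 115 higher genes, 71 had a lower mean in the day 21 brains than in PBS brains, and 10 lay below every PBS brain. Ppil6, a cyclophilin-like gene, had 6.11, 6.50, 6.73, 6.43 and 6.32 log2 intensity in the day 21 brains. It had 3.51, 3.86 and 4.31 in culture (lowest, median, highest) and 6.24 to 6.94 in PBS brains. The neuronal gene Nexmif averaged 6.0 ± 0.14 in the day 21 brains, 4.09 ± 0.24 in culture and 6.60 ± 0.14 in PBS brains (SD, n = 5, 6 and 5). Such genes separate brains from culture without exceeding the PBS brains. The inward rectifier channel gene Kcnj2, the heparan sulfate enzyme gene Ndst4, the zinc finger gene Zfp931 and the tight junction gene Cldn1 are others of the kind, with differences of 1.87, 1.91, 2.29 and 1.89. All day 21 values of Kcnj2, Ndst4, Zfp931 and Cldn1 lay above all culture values, and their range overlapped that of the PBS brains.

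**Figure D1:**
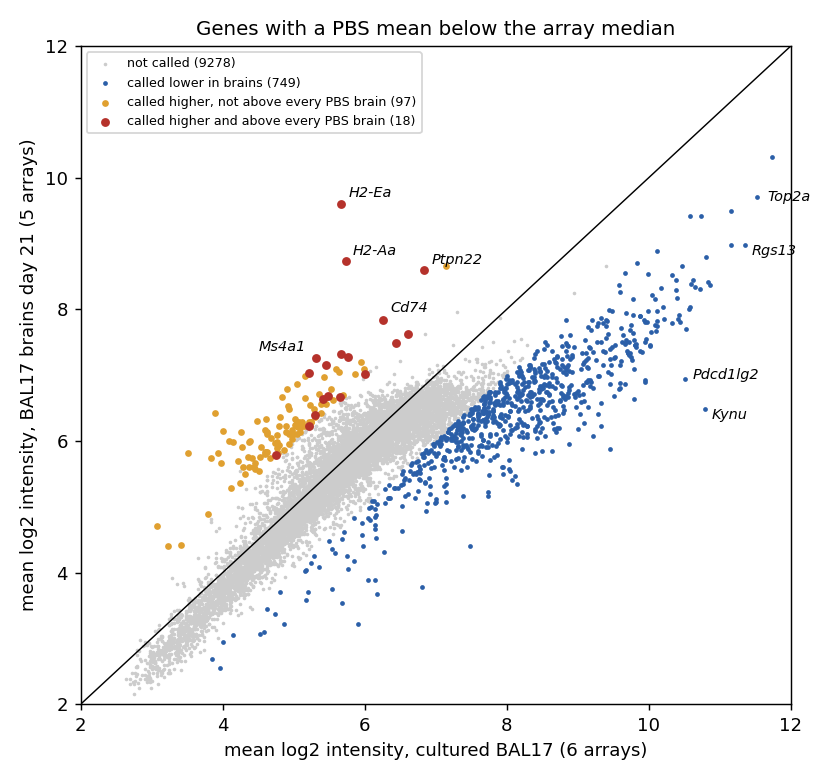
Mean log2 intensity of the 10142 low-brain genes in cultured BAL17 (x axis, 6 arrays) and in BAL17 brains at day 21 (y axis, 5 arrays), with the line of equal values. The 749 genes called lower lie below the line, and 18 of the 115 genes called higher, with H2-Ea farthest from the line, also lay above every PBS brain.

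A set of 18 low-brain genes (0.177%) were called higher than culture and also lay above every PBS brain, so no blend of the measured culture and PBS levels gives their values. The count was 30 without day 21 brain 1, 11 with median centring, and 7 and 3 with an intensity filter at percentile 50 and 75. As background, all 5 day 21 brains lay above every PBS brain for 7.94% of low-brain genes (7.01% of all genes), and 27.9% of low-brain genes (47.0% of all genes) did not overlap with culture. All 18 were free of overlap with culture, which the call already makes likely, so it is not separate support. In culture, 16 of the 18 had means below the median of named probe sets (6.58), where residual background can shrink a difference. The 18 hold genes of antigen presentation (H2-Ea, H2-Aa, Cd74), interferon-inducible genes (Rtp4, Gm4951, Trim30a), immune receptors and surface molecules (Ms4a1, Cd48, Btla, Tlr1, Gpr65, Ms4a6d), the chemokine gene Cxcl13 and the phosphatase gene Ptpn22. The remaining members were Cyp1b1, a cytochrome P450, Slc25a13, a mitochondrial aspartate and glutamate carrier, the kallikrein protease gene Klk4, and C2cd6.

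H2-Ea and H2-Aa, both MHC class II genes, had the largest differences of the 18. H2-Ea, the alpha chain of the I-E molecule, had 9.26, 9.99, 10.03, 9.36 and 9.37 log2 intensity in the day 21 brains. Its lowest, median and highest culture values were 5.50, 5.66 and 5.82, and the PBS brains had 6.01, 6.27, 5.94, 5.57 and 5.45. Every implanted brain stood more than 3 log2 above every culture, and the difference was 3.94 ± 0.14 (limma, adjusted p = 3.91e-13). H2-Aa, the alpha chain of I-A, had 8.02, 9.08, 9.77, 8.44 and 8.35 in the day 21 brains, against 5.07, 5.75 and 6.12 in culture and 5.31 to 6.26 in PBS brains. It rose by 3.01 ± 0.25 (limma, adjusted p = 2.38e-08), with brain 3 highest and brain 1 lowest. Cd74, the invariant chain, had 7.13, 7.97, 8.71, 7.79 and 7.58 in the day 21 brains, against 5.85, 6.33 and 6.52 in culture and 5.33 to 5.62 in PBS brains. Brains 3 and 1 were again its highest and lowest, and it rose by 1.57 ± 0.21 (limma, adjusted p = 6.47e-06).

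The class II list as a whole moved unevenly. Of 9 low-brain members, 3 were called higher, 1 was called lower and 5 were not called, with a median difference of 0.22, against -0.20 over all low-brain genes. H2-Eb1, the beta chain of I-E, averaged 7.62 ± 0.14 in the day 21 brains, 6.85 ± 0.18 in culture and 6.71 ± 0.15 in PBS brains (SD). Its difference of 0.77 ± 0.10 stayed under the 1 log2 that a call needs, although the groups did not overlap (limma, adjusted p = 4.6e-06). H2-Ab1, the beta chain of I-A, had 7.06 to 8.04 in the day 21 brains, around its culture range of 7.17 to 7.30 (difference 0.22 ± 0.13). The transactivator gene Ciita had 6.13 to 6.52 in the day 21 brains, 5.93 to 6.24 in culture and 5.75 to 6.20 in PBS brains, a difference of 0.20 ± 0.10 that was not called. H2-Ob, which codes for a chain of the peptide-exchange regulator of B cells, had 6.63, 7.17, 7.46, 6.85 and 6.90 in the day 21 brains, against 8.08, 8.17 and 8.33 in culture and 5.74 to 6.15 in PBS brains. It fell by 1.20 on the log2 scale, while H2-Ea rose. The lymphoma reference genes described below had a median difference of -1.81, so H2-Ob fell less than most of them. The H2 genes are similar copies, so their values may be uncertain where probes match more than 1 of them, which was not tested.

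**Figure D2:**
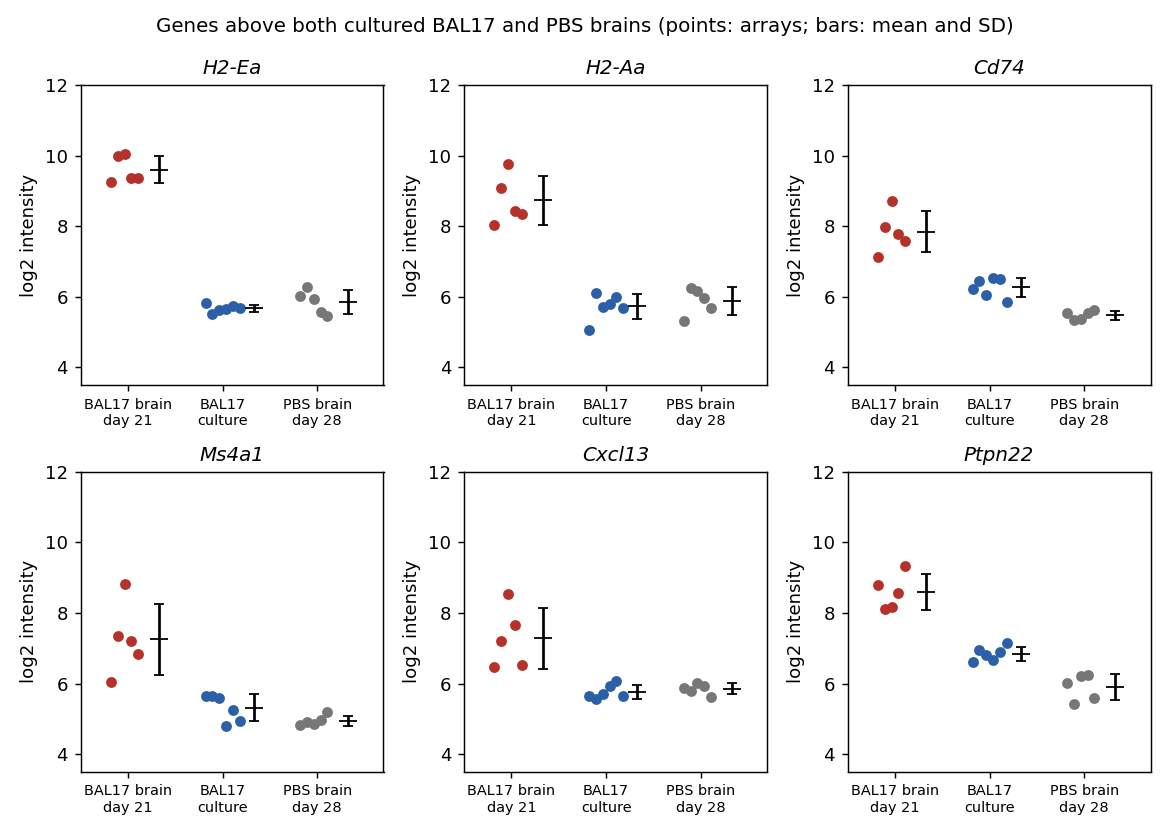
Log2 intensity of 6 genes on each array of BAL17 brains at day 21, cultured BAL17 and PBS brains at day 28, with the mean and SD of each group. All 5 day 21 brains lie above all cultures and all PBS brains for each gene, with H2-Ea at 9.26 to 10.03 and Ms4a1 at 6.05 to 8.81.

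Promoters are shown for a pair of class II genes and a pair of called interferon genes, since class II genes share a Y box and interferon-inducible genes often hold an interferon-stimulated response element (ISRE). The sequences are those of RefSeq on GRCm38.p6, 250 bases before to 50 after the start site, 5′ to 3′ on the gene's strand, with motif matches in capitals. H2-Aa lies at chr17:34287774-34288073 on the minus strand, H2-Eb1 at chr17:34305617-34305916 on the plus strand, Ifit3 at chr19:34583279-34583578 on the plus strand and Trim30a at chr7:104465144-104465443 on the minus strand (1 of its 2 listed promoters).
H2-Aa: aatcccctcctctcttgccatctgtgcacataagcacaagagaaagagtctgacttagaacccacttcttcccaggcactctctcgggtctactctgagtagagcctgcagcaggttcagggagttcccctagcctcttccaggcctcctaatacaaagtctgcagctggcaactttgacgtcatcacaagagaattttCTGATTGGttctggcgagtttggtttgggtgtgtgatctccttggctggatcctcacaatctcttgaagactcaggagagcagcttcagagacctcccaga
H2-Eb1: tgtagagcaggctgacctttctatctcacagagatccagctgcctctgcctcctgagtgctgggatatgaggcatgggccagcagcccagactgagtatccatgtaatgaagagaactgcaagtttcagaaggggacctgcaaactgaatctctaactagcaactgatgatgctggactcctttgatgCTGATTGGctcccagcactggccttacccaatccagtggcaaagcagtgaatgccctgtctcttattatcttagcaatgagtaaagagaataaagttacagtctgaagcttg
Ifit3: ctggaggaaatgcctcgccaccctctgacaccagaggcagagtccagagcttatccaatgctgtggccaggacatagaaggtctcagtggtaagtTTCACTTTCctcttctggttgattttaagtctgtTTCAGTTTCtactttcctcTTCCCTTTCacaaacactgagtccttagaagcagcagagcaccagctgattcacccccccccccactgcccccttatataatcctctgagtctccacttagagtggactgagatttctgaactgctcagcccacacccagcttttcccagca
Trim30a: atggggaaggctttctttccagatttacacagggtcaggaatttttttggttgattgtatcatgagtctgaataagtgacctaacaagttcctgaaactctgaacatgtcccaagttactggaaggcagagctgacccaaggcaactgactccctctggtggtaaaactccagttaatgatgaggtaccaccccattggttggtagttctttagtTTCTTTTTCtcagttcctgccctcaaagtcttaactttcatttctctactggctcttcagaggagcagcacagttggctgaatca
The Y box was searched as CTGATTGG and the ISRE as GAAANNGAA, each on both strands, and 4.1% and 8.56% of all 32851 promoters hold them. These shares count promoters, whereas the list counts below count genes, each taken as a match if any of its promoters matched. The Y box starts at position -51 in H2-Aa and -62 in H2-Eb1, counted from the start site. The ISRE matches, all on the opposite strand, start at -155, -121 and -102 in Ifit3 and at -35 in Trim30a. Of the class II list, 5 of 9 low-brain genes had a promoter in the table and 4 of these held the Y box, H2-Eb1 among them although it was not called. Of the type I interferon list, 12 of 20 had a promoter and 9 of these held an ISRE. Of the interferon gamma list, 11 of 18 had one and 7 of these did. A match is a description of letters and not a measured binding site.

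Among the B cell genes of the 18, Ms4a1, which codes for the surface protein CD20, had 6.05, 7.36, 8.81, 7.21 and 6.84 in the day 21 brains. Culture values were 4.81, 5.42 and 5.65, and PBS brains had 4.83 to 5.19. It rose by 1.94 ± 0.34 (limma, adjusted p = 0.000102) and was the 1 member of the B lineage list called higher. Ptpn22, a phosphatase that limits antigen receptor signalling, had 8.78, 8.10, 8.16, 8.57 and 9.33 in the day 21 brains, against 6.61, 6.84 and 7.15 in culture and 5.43 to 6.25 in PBS brains. It rose by 1.75 ± 0.18 (limma, adjusted p = 2.71e-07), with brain 5 highest. Btla, an inhibitory receptor of lymphocytes, had 5.93 to 6.50 in the day 21 brains, against 4.84 to 5.56 in culture and 4.65 to 4.94 in PBS brains. Its difference of 1.02 ± 0.13 sat close to the 1 log2 limit, as did those of Tlr1, a receptor for bacterial lipoproteins (1.01 ± 0.16), and Ms4a6d, a macrophage gene (1.0 ± 0.12). Cd48, a ligand of lymphocyte receptors, had 6.37, 7.02, 7.32, 6.22 and 6.23 in the day 21 brains, against 4.93 to 5.71 in culture and 5.35 to 5.81 in PBS brains (difference 1.22 ± 0.20). Gpr65, a proton-sensing receptor, had 6.55 to 7.90 in the day 21 brains, 4.87 to 5.88 in culture and 5.49 to 6.10 in PBS brains (difference 1.69 ± 0.21). Cyp1b1 had 6.58 to 7.39 in the day 21 brains, against 4.36 to 5.67 in culture and 5.97 to 6.45 in PBS brains. Its difference was 1.81 ± 0.19 (limma, adjusted p = 3.64e-07).

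Cxcl13, the chemokine that draws B cells into follicles, had 6.46, 7.21, 8.53, 7.66 and 6.52 in the day 21 brains. It had 5.57, 5.67 and 6.06 in culture and 5.62 to 6.02 in PBS brains, and the difference was 1.52 ± 0.28 (limma, adjusted p = 0.00016). Of 19 chemokine genes, 2 were called higher and 0 lower, with a median difference of 0.32. The other called member, Ccl17, a chemokine of dendritic cells, had 6.56 to 7.41 in the day 21 brains, 5.49 to 6.36 in culture and 6.43 to 6.78 in PBS brains (difference 1.15 ± 0.15). The interferon-induced chemokine gene Cxcl9 had 6.03, 6.72, 7.56, 6.65 and 6.29 in the day 21 brains, above its ranges of 5.43 to 5.88 in culture and 4.70 to 5.66 in PBS brains. Its difference of 0.92 ± 0.20 was not called (limma, adjusted p = 0.000736). Without brain 1 the Cxcl9 difference was 1.07, and without brain 5 it was 1.01, and both passed the call. Cxcl10, another chemokine of that class, had 6.35 to 7.38 in the day 21 brains and 6.17 to 6.61 in culture, which overlapped.

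Interferon genes divided the day 21 brains. Of 20 type I interferon response genes, 4 were called higher (Rtp4, Ifit3, Oasl2 and Trim30a) and 0 lower, with a median difference of -0.04. Rtp4, an interferon-induced chaperone of receptors, had 6.87, 8.31, 7.07, 7.22 and 7.12 in the day 21 brains, against 5.40, 5.50 and 6.21 in culture and 6.20 to 6.74 in PBS brains. It rose by 1.65 ± 0.22 (limma, adjusted p = 5.5e-06), with brain 2 far above the others. Ifit3, an antiviral effector, had 5.81, 7.81, 6.63, 6.54 and 6.48 in the day 21 brains, against 4.78, 5.17 and 5.53 in culture and 6.05 to 6.42 in PBS brains (difference 1.49 ± 0.25). Oasl2, of the oligoadenylate synthetase family, followed the same order of extremes, with 6.14 in brain 1 and 8.31 in brain 2 (difference 1.41 ± 0.27). Trim30a, an interferon-inducible regulator of Toll-like receptor signalling, had 7.16, 8.20, 7.36, 7.26 and 7.41 in the day 21 brains and 6.18 to 6.62 in culture. Its difference of 1.04 ± 0.15 was 0.86 without brain 2 and then no longer called. Of 18 interferon gamma response genes, 2 were called higher and 1 lower, with a median of 0.26. Iigp1, an immunity-related GTPase, had 5.08, 7.68, 6.91, 7.17 and 5.80 in the day 21 brains, against 4.40 to 5.31 in culture and 4.83 to 5.24 in PBS brains. Brain 1 lay within both of those ranges, and the difference was 1.61 ± 0.36 (limma, adjusted p = 0.000877). Gbp4, a guanylate-binding protein gene, had 5.60, 7.91, 8.82, 7.22 and 5.95 in the day 21 brains and 5.10 to 5.96 in culture, so brains 1 and 5 stood at culture levels. The difference was 1.5 ± 0.43 (limma, adjusted p = 0.00607). Gm4951, a related interferon-inducible GTPase gene, had 5.86, 7.78, 6.41, 7.10 and 6.27 in the day 21 brains and 5.24 to 5.73 in culture (difference 1.20 ± 0.25, and 0.93 without brain 2, where it was not called). Irgm1, of the same GTPase family, had 6.52 to 7.68 in the day 21 brains and 6.76 to 7.24 in culture and did not pass the test (difference 0.19 ± 0.18).

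List means peaked in different brains. Mean levels of the interferon gamma list were 5.78, 6.43, 6.57, 6.35 and 5.96 in day 21 brains 1 to 5, against 5.95 to 6.12 in culture and 5.58 to 5.66 in PBS brains. Class II list means were 7.14, 7.52, 7.90, 7.35 and 7.23 in the same brains, against 6.49 to 6.65 in culture and 5.98 to 6.05 in PBS brains. Of the 9 class II genes, 8 were highest in brain 3. Of the 18 interferon gamma genes, 9 were highest in brain 3, 5 in brain 2, 4 in brain 4 and 0 in brains 1 and 5. The type I list mean was highest in brain 2, at 6.63, but its genes were spread: 6, 7, 1, 4 and 2 of the 20 were highest in brains 1 to 5. Mitotic genes went with brain 5: 19 of 21 were highest there, with a list mean of 8.15, against 7.65 to 7.79 in the other day 21 brains.

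**Figure D3:**
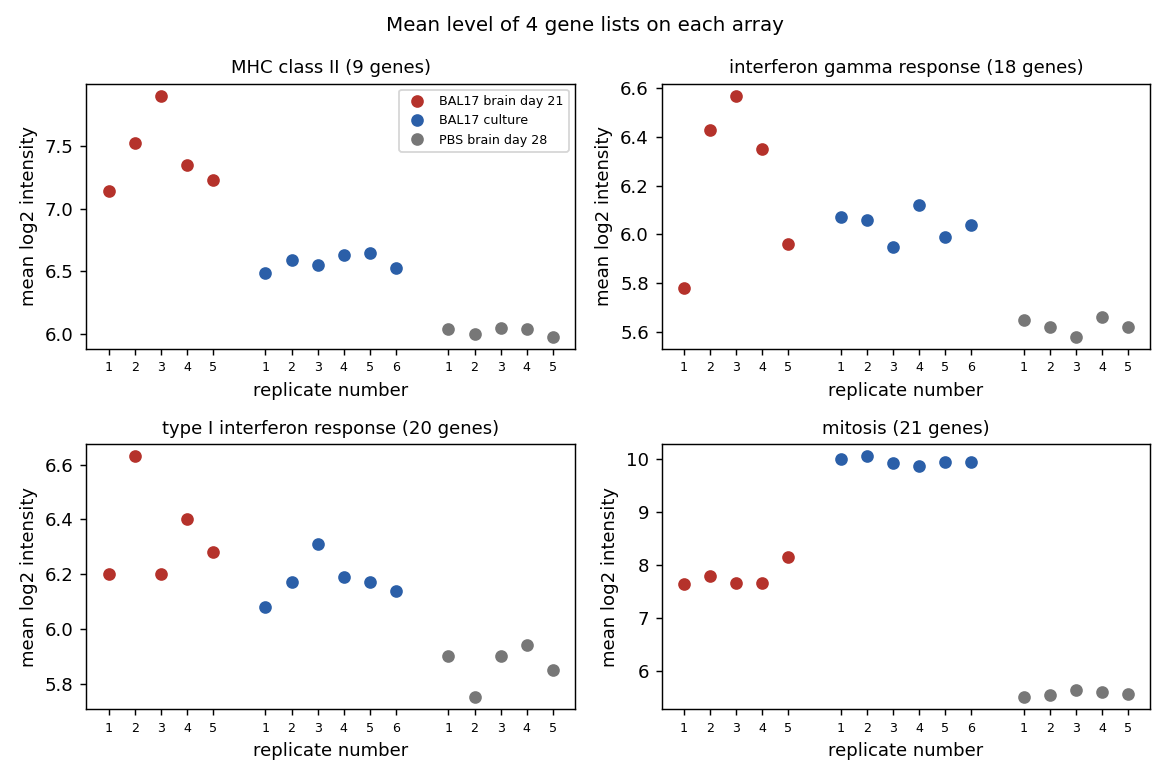
Mean log2 intensity of 4 gene lists (low-brain members) on each array of BAL17 brains at day 21, cultured BAL17 and PBS brains at day 28, by replicate number. Class II genes peak in brain 3 at 7.90, the type I interferon list in brain 2 at 6.63 and mitotic genes in brain 5 at 8.15.

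Genes high in cultured lymphoma cells of the BAL17VII line served as 446 reference genes. These are low-brain genes whose mean in cultured BAL17VII lay at least 2 log2 above PBS brains and above the median of named probe sets on those arrays, so neither the day 21 brains nor cultured BAL17 chose them. Of the 446, 373 were called lower in the day 21 brains, 8 were called higher and 65 were not called, and 349 lay above every PBS brain. Their median difference was -1.81, with quartiles of -2.24 and -1.35, against -0.15 over all genes. The 8 called higher are among the 18 genes above both culture and PBS. For 342 of the 446 cultured BAL17 also stood at least 2 log2 above PBS brains. That held for 1 of the 6 MHC class II genes and 0 of the 10 type I interferon genes among the 446. The 446 thus include genes that differ between the cultured lines. The position of the 342 genes was computed from linear intensities, with 0% at the PBS mean and 100% at the mean of cultured BAL17. The median position was 12.3%, 14.2%, 12.4%, 12.6% and 19.5% in day 21 brains 1 to 5. In PBS brains, whose own mean sets 0%, it lay between -0.227% and 0.0395%. Brain 5 stood apart from the other 4, and 222 of the 342 genes were highest in it. The 5 BAL17 brains of day 28 had medians of 11.4% to 13%. A position is a ratio of normalized intensities and not a share of cells.

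**Figure D4:**
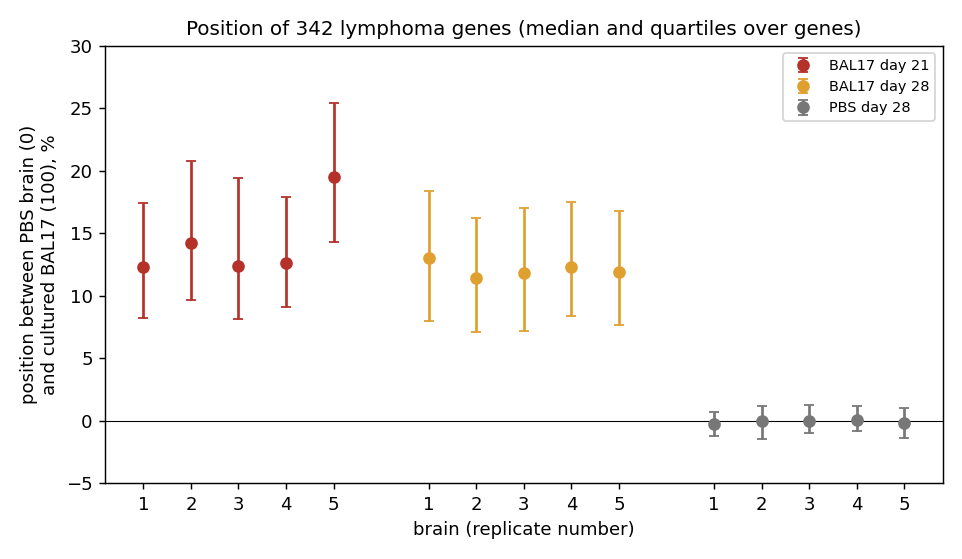
Median position of 342 lymphoma reference genes in each brain, in percent, where 0 is the PBS mean and 100 the mean of cultured BAL17, with quartiles over genes as bars. Day 21 brains 1 to 4 lie at 12.3 to 14.2%, brain 5 at 19.5%, day 28 brains at 11.4 to 13% and PBS brains around 0.

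Averaged over the 5 day 21 brains, the position of a gene had a median of 14.3% over the 342 genes, with quartiles of 10.6% and 20.1%. Some B cell genes stood higher. Of 18 low-brain B lineage genes, 12 were called lower and 1 higher, and the 12 with a position had a median of 18.2%, from 8.11% to 40.7%. Cd79b, a signalling chain of the B cell receptor, had 8.71, 9.23, 8.82, 8.66 and 9.01 in the day 21 brains, against 10.08, 10.10 and 10.18 in culture and 5.59 to 6.38 in PBS brains. It fell by 1.23 on the log2 scale (limma, adjusted p = 1.15e-08), which leaves it at 39.4 ± 7.67% (SD over 5 brains). Pou2af1, a coactivator of B cell genes, had a position of 40.7 ± 4.72% and fell by 1.11 on the log2 scale. Cd79a, the partner chain, had 6.88 to 7.74 in the day 21 brains and 8.68 to 8.89 in culture, a position of 28.7 ± 9.41%. Blnk, an adaptor below the receptor, had 7.86 to 8.38 in the day 21 brains and 10.46 to 10.67 in culture, and its position of 11.9 ± 2.81% was below that of the median gene in each of the 5 brains. The transcription factor gene Spib (8.11 ± 4.12%) also lay below that median in 5 of 5 brains, while Pax5, the B cell identity factor, had 15.5 ± 4.35%. The differences between these positions were not tested.

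Of 7 low-brain germinal centre genes, limma called 3 lower (Rgs13, Stap1 and the DNA glycosylase gene Neil1) and 0 higher, with a median difference of -0.13, close to that of all low-brain genes. Rgs13, which dampens chemokine receptor signals in germinal centre B cells, had 8.06, 9.06, 10.46, 8.46 and 8.82 in the day 21 brains. It had 11.30, 11.32 and 11.47 in culture and 4.16 to 5.32 in PBS brains, and it fell by 2.38 on the log2 scale (limma, adjusted p = 1.83e-06). Brain 3 had its highest value, as for class II genes, and its position was 22.2 ± 17.9%. Stap1, an adaptor of B cell receptor signalling, had 7.80 to 8.49 in the day 21 brains and 10.32 to 10.50 in culture (position 20.2 ± 4.2%). Of 13 receptor signalling genes, limma called 9 lower and 0 higher, with a median of -1.25. Of 9 plasma cell genes 3 were called lower and 0 higher, among them the transcription factor gene Irf4, which had 5.67 to 6.50 in the day 21 brains and 8.04 to 8.44 in culture.

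Cell division genes fell, as did most reference genes. All 21 low-brain mitosis genes were called lower, and all 21 lay above every PBS brain, with a median difference of -2.21 and positions of 10% to 28% (median 16.3%). The median position of all 342 genes was 14.3%. All 21 are among the 446 reference genes, 373 of which were called lower. After the median of the reference genes was subtracted from each array, 0 of the 21 were called, with a median difference of -0.42. Top2a, the topoisomerase of dividing cells, had 9.61, 9.76, 9.32, 9.60 and 10.23 in the day 21 brains, against 11.46, 11.47 and 11.68 in culture and 4.85 to 5.74 in PBS brains. It fell by 1.82 on the log2 scale (limma, adjusted p = 1.78e-09) and kept a position of 28.0 ± 7.24%. Mki67, the proliferation antigen Ki-67, had 8.74 to 9.43 in the day 21 brains and 11.01 to 11.34 in culture, a position of 20.6 ± 4.58%. Bub1, a spindle checkpoint kinase, had 7.75 to 8.56 in the day 21 brains and 10.51 to 10.67 in culture (position 16.3 ± 4.56%). Tpx2 and Aurkb, both of the mitotic spindle machinery, fell by 2.57 and 2.53 and had positions of 12.7 ± 3.33% and 12.5 ± 2.55%. Of 15 DNA replication genes, 12 were called lower and 0 higher, with a median of -2.01. On the relative scale, 1 of the 9 that are reference genes was called lower. Among the replication genes, the helicase loader gene Cdc45 had a position of 10.8 ± 2.21% and the helicase gene Mcm4 one of 10.9 ± 3.36%, both below the median gene in 5 of 5 brains. The ribonucleotide reductase gene Rrm2 had 14.9 ± 3.10%.

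Some genes of metabolism and of lymphocyte trafficking fell as well. Of 7 genes of the ATF4 and amino acid response, limma called 4 lower and 0 higher, with a median difference of -1.09. The largest fall of this list was that of Atf3 (-2.80), which was also called lower relative to the reference genes and is described below. None of the other genes named in this paragraph was called on that scale. Cth, which makes cysteine from cystathionine, had 7.04 to 7.34 log2 intensity in the day 21 brains, 8.82 to 9.22 in culture and 5.81 to 6.34 in PBS brains, a position of 15.5 ± 2.59%. Shmt2, the mitochondrial enzyme that feeds serine into one-carbon metabolism, had 8.22 to 8.89 in the day 21 brains, 10.26 to 10.55 in culture and 6.47 to 6.85 in PBS brains (position 20.8 ± 5.99%). Among 12 lymphocyte homing and adhesion genes, 3 were lower by the test and 0 higher. Ccr6, a chemokine receptor of B cells, had 6.03 to 6.47 in the day 21 brains, 7.25 to 7.89 in culture and 5.41 to 5.78 in PBS brains. Gpr183, the oxysterol receptor that positions B cells in follicles, had 6.48 to 7.17 in the day 21 brains, which overlapped the PBS range of 6.43 to 6.90, and 7.75 to 8.0 in culture. The early activation antigen gene Cd69 fell by 2.37 on the log2 scale (limma, adjusted p = 1.22e-09), with its highest day 21 values in brains 5 and 1 (6.57 and 6.38). Cd2, an adhesion molecule of lymphocytes, had 7.76 to 8.24 in the day 21 brains and 9.37 to 9.60 in culture, and its position of 30.3 ± 6.47% compares with 12.8 ± 2.07% for Cd22, an inhibitory coreceptor of B cells.

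Class I presentation and apoptosis genes gave smaller differences. Of 5 low-brain class I pathway genes, limma called 2 lower (Psmb8 and Erap1) and 0 higher, with a median of -0.92. Psmb8, an interferon-induced proteasome subunit, had 6.89, 7.56, 7.72, 7.33 and 7.10 in the day 21 brains, 8.29 to 8.50 in culture and 5.54 to 6.0 in PBS brains. Its position was 38.1 ± 13.1%, and brain 3 had its highest level, as for class II genes. Of 7 BCL2 family genes, limma called 0 in either direction, and 6 were lower and 0 higher at an unadjusted p under 0.05, with a median of -0.80. Over all 10142 low-brain genes, 4276 were lower and 784 higher at an adjusted p under 0.05 with no minimum change. Bcl2l11, which codes for the death-promoting protein BIM, had 7.09, 7.07, 7.0, 7.14 and 7.68 in the day 21 brains, 7.98 to 8.25 in culture and 5.59 to 6.01 in PBS brains. Its difference of -0.90 ± 0.11 stayed within the 1 log2 limit (limma, adjusted p = 2.96e-06), at a position of 41.3 ± 14.8%.

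After the median of the 446 reference genes was subtracted from each array, 21 of them were called lower and 58 higher. Over all genes the shares called on this scale were 0.110% lower and 87.7% higher. Of the 6 class II genes among the 446, 5 were called higher on this scale and 0 lower, with a median of 2.95. Only 1 of these 6 stood at least 2 log2 above PBS brains in cultured BAL17. Of the 58, 38 had a culture mean less than 1 log2 above PBS brains, and a gene so close to PBS levels cannot fall far. All 21 lower genes had a culture mean at least 2 log2 above PBS brains. A lower call on this scale needs a fall at least 1 log2 beyond that of the reference genes. Genes closer to PBS levels have little room for it, so this was largely set in advance. With reference genes limited to those at least 2 log2 above PBS brains in cultured BAL17 too, 10 were called lower and 8 higher. Of the 21, 20 lay below the median gene's position in 5 of 5 brains, as did 92 of all 342. The call and the position use the same arrays, so this describes the 21 and is no separate test.

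The largest fall among the low-brain genes was that of Kynu, which codes for kynureninase of tryptophan breakdown. It had 6.90, 6.88, 6.41, 6.34 and 5.92 in the day 21 brains, against 10.77, 10.78 and 10.82 in culture and 5.43, 5.83, 4.92, 5.18 and 5.44 in PBS brains. It fell by 4.29 on the log2 scale and by 2.51 beyond the reference genes (limma, adjusted p = 1.94e-13 and 1.72e-10), and its position was 2.95 ± 1.48%. The brain with the highest lymphoma position, brain 5, had the lowest Kynu level. Pdcd1lg2, the checkpoint ligand PD-L2, had 7.15, 6.93, 6.45, 6.81 and 7.33 in the day 21 brains, against 10.46, 10.51 and 10.61 in culture and 4.83 to 5.60 in PBS brains. It fell by 3.58 on the log2 scale and by 1.79 beyond the reference genes (limma, adjusted p = 3.36e-13 and 1.62e-10), at a position of 6.33 ± 1.99%. Cd274, which codes for the related ligand PD-L1, had 7.64, 7.84, 8.21, 7.58 and 8.0 in the day 21 brains and 10.15 to 10.28 in culture. It fell by 2.36 on the log2 scale and its position of 14.8 ± 3.86% lay near the median gene, so it was not called on the relative scale. Ptger4, a receptor for prostaglandin E, had 6.23, 6.16, 6.19, 6.11 and 6.46 in the day 21 brains, against 9.20, 9.33 and 9.51 in culture and 5.71 to 6.03 in PBS brains, a position of 2.6 ± 1.27%. Its day 21 brains lay just above the PBS range.

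Other genes of the 21 stood close to PBS levels. Cyp39a1, an oxysterol hydroxylase, had 5.73 to 6.34 in the day 21 brains, within reach of the PBS range of 5.41 to 6.29, against 9.12 to 9.41 in culture (position 0.444 ± 2.46%). Rag1, of the antigen receptor recombinase, had 4.99 to 5.55 in the day 21 brains, 7.84 to 8.51 in culture and 5.18 to 5.52 in PBS brains (position 0.804 ± 2.52%). The meiotic gene Meiob and the secretoglobin gene Scgb2a2 also overlapped the PBS brains, with positions of 1.44 ± 2.56% and 1.82 ± 3.30%. Ttc41 had 5.61 to 6.17 in the day 21 brains, 9.20 to 9.66 in culture and 5.16 to 5.33 in PBS brains (position 3.15 ± 1.48%). Atf3, a stress-induced transcription factor, had 6.55 to 7.08 in the day 21 brains, 9.44 to 9.83 in culture and 5.99 to 6.19 in PBS brains (position 6.25 ± 2.12%). Genes of DNA repair and division were among the 21 too. Neil3, a DNA glycosylase, had a position of 9.59 ± 2.51%, the kinesin gene Kif14 8.55 ± 2.09%, the kinetochore gene Kntc1 8.07 ± 2.45% and Pole, the catalytic subunit of DNA polymerase epsilon, 9.71 ± 2.94%. The germline helicase gene Ddx43 had 5.67 to 7.28 in the day 21 brains and 9.69 to 9.89 in culture (10 ± 4.62%), and was the exception that did not lie below the median gene in 1 brain.

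**Figure D5:**
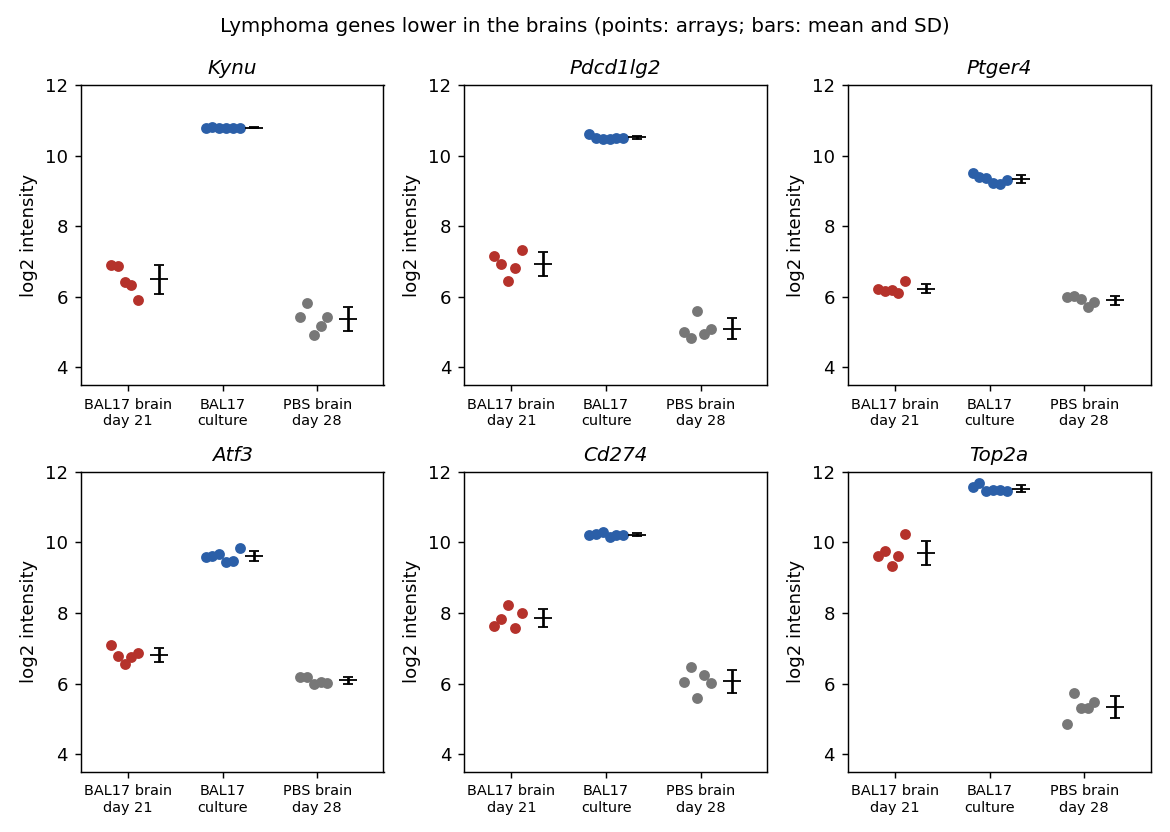
Log2 intensity of 6 lymphoma genes on each array of BAL17 brains at day 21, cultured BAL17 and PBS brains at day 28, with the mean and SD of each group. Kynu and Ptger4 end near the PBS brains (positions of 2.95% and 2.6%), while Top2a stays far above them (28.0%).

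At the other end, 6 of the 58 genes called higher on the relative scale had a culture mean at least 2 log2 above PBS brains. The 3 described here were picked after their values were seen. Cd52, a small surface protein of leukocytes, had 6.93, 8.18, 9.31, 7.50 and 7.46 in the day 21 brains, around its culture values of 7.75 to 8.02 and above 5.10 to 5.90 in PBS brains. Cybb, the phagocyte oxidase subunit that B cells also express, had 6.77 to 8.46 in the day 21 brains, 7.39 to 7.81 in culture and 5.08 to 5.75 in PBS brains. P2ry10, a lymphocyte lysophospholipid receptor, had 7.69, 7.75, 7.16, 6.75 and 8.22 in the day 21 brains, against 7.95 to 8.21 in culture and 3.36 to 3.94 in PBS brains, a position of 69.5 ± 28.1%. Cd52 and Cybb peaked in brain 3 and P2ry10 in brain 5.

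Few host immune markers passed the call. Of 21 monocyte and macrophage genes, 2 were called higher (Mrc1 and Ms4a6d) and 2 lower (Fcgr2b and Ms4a4c), with a median of 0.12. Over all low-brain genes 1.13% were called higher and 7.39% lower. The 2 of 21 called higher thus exceed the background share. Of the 21, 8 lay above every PBS brain, against 7.94% of all low-brain genes. At an unadjusted p under 0.05, 9 were higher and 2 lower. The list means were 5.62 to 5.83 in the day 21 brains, 5.60 to 5.70 in culture and 5.19 to 5.29 in PBS brains. Mrc1, the mannose receptor of perivascular macrophages, had 6.61, 7.60, 6.75, 7.38 and 7.65 in the day 21 brains, 5.55 to 6.52 in culture and 6.23 to 6.66 in PBS brains (difference 1.25 ± 0.21). Fcgr2b, the inhibitory Fc receptor that B cells share, fell by 1.76 on the log2 scale, and Ms4a4c fell by 1.42. The lymphoma reference genes had a median difference of -1.81, so neither fell further than these. Of 9 complement and activated phagocyte genes, limma called 0 in either direction, with a median of 0.35. At an unadjusted p under 0.05, 6 of the 9 were higher and 0 lower, and 3 lay above every PBS brain. Of 20 T cell genes, limma called 3 lower and 0 higher (7 lower and 1 higher at an unadjusted p under 0.05), and 4 of the 20 lay above every PBS brain. The list means were 5.62 to 5.80 in the day 21 brains, 6.02 to 6.17 in culture and 5.17 to 5.47 in PBS brains. Since the list stood higher in culture than in PBS brains, a lower call does not measure host T cells. Cd3g, a chain of the T cell receptor complex, was among the 3 called lower, with 5.13 to 6.31 in the day 21 brains, 7.23 to 7.59 in culture and 4.24 to 5.02 in PBS brains. Cd3e, its partner, had 6.35 to 6.78 in the day 21 brains and 6.30 to 6.98 in culture, which overlapped. By limma, 0 of 16 cytotoxic and NK genes and 0 of 13 neutrophil genes were called in either direction, with medians of -0.16 and -0.15. At an unadjusted p under 0.05, 1 cytotoxic gene was higher and 6 were lower, as were 1 and 3 neutrophil genes. These counts sit beside a broad background. Of all 10142 low-brain genes, 4276 were lower and 784 higher even at an adjusted p under 0.05, with no minimum change. Above every PBS brain lay 1 of the 16 cytotoxic and 0 of the 13 neutrophil genes. Gzmb, a cytotoxic granule protease, had 4.86 to 4.92 in 4 day 21 brains and 5.75 in brain 3. Of 13 reactive gliosis genes, Osmr, the oncostatin M receptor, was called higher and Cd44 lower. Osmr had 6.51 to 7.45 in the day 21 brains, 4.63 to 5.42 in culture and 6.38 to 7.05 in PBS brains, and so overlapped the PBS brains. How far host cells carry the levels of class II, chemokine and interferon genes was not tested.

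The day 28 brains were set against the same culture arrays, so their values are given side by side. There, 99 low-brain genes were called higher (0.976%) and 796 lower (7.85%). Of the 18 genes above both culture and PBS at day 21, 7 were called higher at day 28, and 6 of these lay above every PBS brain in all 5 day 28 brains. H2-Ea had 9.38 to 10.72 at day 28 and 9.26 to 10.03 at day 21. Ms4a1 had 7.48 to 8.74 at day 28 and 6.05 to 8.81 at day 21. Ptpn22 had 6.90 to 7.75 at day 28, below all 5 day 21 brains (8.10 to 9.33). Kynu had 5.31 to 6.07 at day 28 and 5.92 to 6.90 at day 21. The steps from day 21 to day 28 were not tested here.

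In BAL17VII, 10 of the 18 genes were lower in the brains than in culture. Against their own culture, the BAL17VII brains of day 21, brain 1 included, had 162 low-brain genes called higher (1.60%) and 1056 lower (10.4%). Of the 18 genes, Cyp1b1 was called higher there (difference 1.46 ± 0.12) and 10 were called lower. Without BAL17VII brain 1, Cxcl13 and Ms4a1 were called higher too, with differences of 1.22 and 1.26, and the count of lower genes remained 10. H2-Ea averaged 9.07 in BAL17VII brains (9.72 without brain 1) and 11.11 in cultured BAL17VII, a difference of -2.04 ± 0.48, against the rise of 3.94 in BAL17. The interaction term, BAL17 minus BAL17VII in brain minus culture, was 5.98 (limma, adjusted p = 2.98e-08), and 5.33 without BAL17VII brain 1 (adjusted p = 7.66e-13 in limma). This term includes the gap between the cultured lines as well as that between the brains. Cd74 averaged 7.47 in BAL17VII brains (8.01 without brain 1) and 10.32 in cultured BAL17VII. H2-Aa averaged 8.02 in BAL17VII brains (8.58 without brain 1) and 10.15 in cultured BAL17VII. The interaction terms of Cd74 and H2-Aa were 4.43 and 5.13 (limma, adjusted p = 1.12e-06 and 3.24e-07), and 3.88 and 4.57 without BAL17VII brain 1. The means of H2-Ea, H2-Aa and Cd74 in brains of BAL17 (9.60, 8.73 and 7.84) lay within 0.8 log2 of those in BAL17VII brains, whereas the cultured lines stood more than 4 log2 apart. For these genes the term rests mostly on the gap between the cultures, and a different response to the brain was not tested. For Ms4a1, Iigp1 and Cxcl13 the interaction was not called with BAL17VII brain 1 included (limma, adjusted p = 0.167, 0.967 and 0.442). Their interaction without that brain is not given here.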

How the data were processed

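RNA of 32 samples was measured on Affymetrix mouse gene arrays, and the deposited values are intensities that the authors derived by RMA, with Affymetrix Expression Console as the software (per the submitters' processing notes). Versions are not given in the sources used here, nor whether lines and brains were normalized together. RMA corrects background, quantile-normalizes and summarises probes. The intensities are on a linear scale, and log2 was taken first. RMA gives no detection call, and the number of arrays limits the precision.

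Of 35556 probe sets, 21789 carried 1 gene symbol, 1621 several and 12146 none, and 21698 had an identifier in the GRCm38.p6 gene table, for 19938 genes. Each gene was read from 1 probe set, the one of highest mean on the 11 arrays. Groups followed the sample titles. The main test was limma 3.58.1 in R 4.3.3 (lmFit and eBayes, two-sided) on 5 and 6 arrays, with no filter on low values, since low-brain genes would pass mainly through cultures, and with Benjamini-Hochberg adjustment over 19938 genes. Known changes were also put into simulated data to check the code. Those data had independent noise for each gene and no mixture of brain and lymphoma, and no result rests on them. Replicate numbers do not pair brains with cultures. The interaction of line and implantation was fitted over the 4 groups concerned and was added after the values were seen.

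The genes named are the 12 higher and 12 lower low-brain genes of largest difference without overlap, the 15 largest above both culture and PBS, up to 4 called and 2 least changed members of each list described, the 12 reference genes at each end, and a fixed set of 18 genes. Others were chosen after their values were seen. The members and lists were chosen with earlier results of these data known. Alternatives were filters, scalings, probe set means, moderation, array weights, all 32 arrays, a replicate block, other limits for low-brain and reference genes, other call rules, and leaving out each array. Promoters were read and figures drawn with Python 3.11.15, pandas 2.3.3 and matplotlib 3.10.9.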

Additional observations from a re-analysis of the deposited data

Results flagged for a closer look

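Of 308 groups of values checked for a single array far from the rest (102 genes in 3 groups, and brain positions), 16 (5.19%) held one, where chance flags about 1 in 20. Among day 21 brains, brain 2 stood apart for Rtp4 (8.31, the others 6.87 to 7.22) and Trim30a (8.20, the others 7.16 to 7.41). Brain 3 stood apart for Gzmb (5.75, the others 4.86 to 4.92). Brain 1 stood apart for Scgb2a2 (4.97, the others 4.19 to 4.36). Brain 5 stood apart for Pole (6.88, the others 6.28 to 6.32), Bcl2l11 (7.68, the others 7.0 to 7.14) and the median lymphoma position (19.5%, the others 12.3 to 14.2%).

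Among cultures, single arrays stood apart for Irgm1 (7.24), Pdcd1lg2 (10.61) and Cd79a (8.68). Among PBS brains this held for Irgm1 (6.77), Gzmb (4.42) and Cd2 (5.42), all in brain 2, and for Cd22 (6.15), Bcl2l11 (5.59) and Cth (5.81) in other brains.

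For 10 genes the change from culture to day 21 brain went up in BAL17 and down in BAL17VII, with each change called and the interaction past the threshold in limma. The interaction, as BAL17 minus BAL17VII on the log2 scale, was 5.98 for H2-Ea, 5.13 for H2-Aa, 4.43 for Cd74, 3.31 for Ptpn22, 3.27 for Rtp4, 2.87 for Cd48, 3.39 for C2cd6, 3.38 for Trim30a, 2.54 for Btla and 2.45 for Tlr1. Without BAL17VII brain 1 the lowest of these was 2.47 (Btla) and the highest 5.33 (H2-Ea). Each term includes the gap between the cultured lines.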

How the results depend on the processing

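The direction of each of the 102 named genes that was called held under the alternatives run on it. Leaving out an array kept 1079 of 1122 gene results on their side of the threshold, and the other alternatives kept 808 of 836. Genes that lost their call in these results were near 1 log2, such as Btla, Tlr1, Ms4a6d and Trim30a. Genes that an intensity filter removed are not among the 836 results. The filter at percentile 50 removed Ms4a1, Cyp1b1, Gpr65, Cxcl13 and Cd48, among others. The count of low-brain genes called higher rests most on the settings. It was 115, and 9 and 3 with an intensity filter at percentile 50 and 75, 63 where every PBS brain had to lie below its array median, 12 with PBS means below percentile 25, 784 with no minimum change and 34 with a null of 1 log2 (treat). Genes above both culture and PBS numbered 18, and under the 2 filters 7 and 3, with median centring 11, at percentile 25 5, with no minimum change 60 and with treat 6. H2-Ea, H2-Aa and Ptpn22 were the 3 that passed the stricter filter. The count of lower genes, 749, was 362 with the stricter filter, 253 at percentile 25 and 4276 with no minimum change. The median of the reference genes, -1.81, was -2.05 with the stricter filter, -1.91 with median centring, -2.0 at percentile 25, -2.11 with reference genes at 3 log2, and -2.02 where cultured BAL17 had to be 2 log2 above PBS too, a choice made after seeing the data. For those settings in the order stricter filter, percentile 25, 3 log2 and cultured BAL17, relative calls were 7, 26, 26 and 8 higher and 8, 8, 4 and 10 lower. They were 31 higher with the filter at percentile 50, 159 higher and 178 lower with no minimum change, and 8 lower with treat. The filters and the narrower limits test fewer genes, and the cause of the other shifts was not tested. Leaving out each array gave 107 to 128 higher genes, 741 to 767 lower, 15 to 30 above both (30 without day 21 brain 1, with all 18 among them), medians of -1.86 to -1.78, and 57 to 59 and 16 to 21 relative calls. The replicate block gave 108 higher, 758 lower and 16 above both, 15 of them shared with the 18, and the pairing it assumes is not borne out by the labels. Intensities near background limit the low genes.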
